A study of Mus musculus with 8 samples.

Results

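The genes described here are those of meiotic prophase, in which homologous chromosomes are cut, paired and joined. A list of 41 genes was drawn up by name and divided into 8 roles, and 40 of the 41 were found in the deposited table and tested, among 17126 tested genes of 17127 in the table. Mei4 was not analysed here. The list itself was proposed with earlier results of these data known.

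RNA was sequenced from whole testes of adult mice aged 4 months, with 1 library per mouse. The wild-type group had 4 libraries (wild type 1 to 4). The mutant group had 3 libraries (mutants 1, 2 and 4) from Iqch-/- males, which carry a small deletion in 1 exon of Iqch made with CRISPR-Cas9 in zygotes. The study made 2 mutant lines of this kind, mu5 and mu7. It describes the phenotype, and plots the RNA-seq reads over Iqch, for mu7, while the labels name no line for single mice. The comparison asks how the RNA of meiotic genes in the testis differs between these genotypes, since the authors studied germ cell development in the mutant.

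In meiotic prophase the enzyme Spo11 cuts the DNA, strand exchange proteins guide each broken end into the homologous chromosome, and crossover proteins turn some of these joints into lasting exchanges. Each chromosome is meanwhile folded along a protein axis that holds meiotic cohesin rings, and the axes of homologues are zipped together by the central region of the synaptonemal complex. Telomeres are fixed to the nuclear envelope, through which the chromosomes are moved until they find each other. In the testis these genes are read mainly in spermatocytes, the germ cells that follow the spermatogonia and precede the spermatids.

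The values are CPM, the reads of a gene scaled to 1 common total of reads in every library. Depth was alike in both groups, from 32859673 to 37551057 reads in wild-type libraries and from 32064384 to 34806129 in mutant libraries, if 1 step of the table is taken as 1 read. Genes were called changed at a false discovery rate (FDR) of 0.01 in limma, with Benjamini-Hochberg adjustment over all tested genes, and log2 fold changes are on the log2(CPM + 0.1) scale, mutant over wild type. The targeted gene itself (Iqch, ENSMUSG00000037801) lay between 193 and 217 CPM in wild-type testes and between 64.8 and 69.2 CPM in mutant testes, so the libraries went with their labels. Of all tested genes, 6212 were called higher in the mutant and 2428 lower, and the median log2 fold change was 0.12. With median-of-ratios size factors in place of the deposited scale, 4627 were higher, 4294 were lower and the median was -0.01. Members are therefore given on both scales where the call or the sign differs between them.

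Most meiotic genes changed little. Of the 40 members, 4 were called lower in the mutant, namely Mnd1, Syce1, Syce2 and Syce3, where 14.2% of all tested genes were. Another 2, Spo11 and Mei1, were called higher, where 36.3% of all tested genes were, and 34 passed in neither direction. The members' median log2 fold change was 0.03 on the deposited scale and -0.10 with size factors, which lay 0.09 below the median of all genes. Among the 3 mutant libraries this distance from the median of all genes varied with an SD of 0.056. On the size-factor scale 13 members were called lower, where 25.1% of all genes were, and 0 were called higher, where 27.0% were. At an unadjusted p under 0.05 in limma, 1 member was higher on that scale. The share of all genes under that unadjusted threshold is not given here, so such counts only describe the members. The study, with its own tests, names Hsf2bp among lower genes and Mnd1, Meiob, Meioc and Sycp1 among differentially expressed ones. Here Mnd1 was called lower on both scales, and Hsf2bp, Meiob, Meioc and Sycp1 only with size factors. The study also lists Hfm1 and Meiob among genes with a switch of isoforms, which was not examined here. In mutant spermatocytes it reports that synapsis, recombination and both divisions were achieved. By flow cytometry it found a lower proportion of haploid cells only.

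Fold changes above 0.5 on the log2 scale were rare among these genes. Relative to the median gene, 38 of the 40 members lay within 0.5 in either direction, where 73.3% of all tested genes did. The exceptions were Mnd1 and Syce2. The groups did not overlap for 14 members, with every mutant below every wild type for 9 (19.5% of all genes) and above for 5 (42.8% of all genes). With size factors these counts were 18 below (31.6% of all genes) and 1 above (32.7%). Summed over the 40 members, CPM ran from 2754.5 to 2940.1 in wild-type libraries and from 2609.8 to 2719.4 in mutant libraries. In whole testis, fewer cells of a type and less RNA per cell cannot be told apart.

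**Figure D1:**
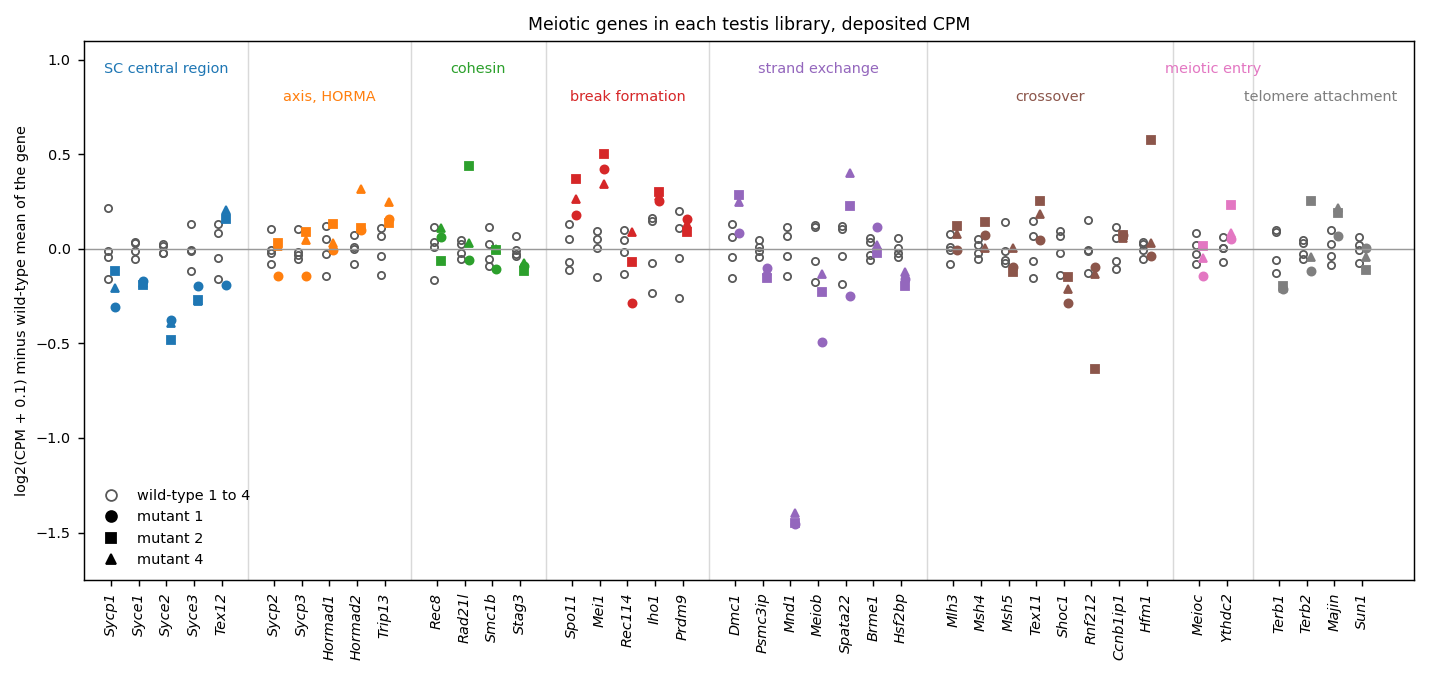
Each point is 1 library's log2(CPM + 0.1) of a meiotic gene minus the wild-type mean of that gene, with wild-type libraries as open circles, mutants 1, 2 and 4 as filled circles, squares and triangles, and genes grouped by role. Mnd1 stands alone near -1.4 in the 3 mutants, while in most other genes the mutant points lie among or just beside the wild-type points.

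Levels differed widely between members. Per kb of annotated exon in wild-type testis, Syce1 had the highest level, with 176 CPM per kb, followed by Stag3 with 79.0. Ccnb1ip1 had the lowest level, with 1.14 CPM per kb, and Rad21l and Prdm9 followed with 1.41 and 1.42. The 4 genes called lower were spread from 3.21 CPM per kb (Mnd1) to that of Syce1.

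The central region of the synaptonemal complex held 3 of the 4 members called lower. These were 3 of its 5 members, where 14.2% of all tested genes were called lower. Transverse filaments of this region are made of Sycp1. The central element is built from Syce1, Syce2, Syce3 and Tex12, and also holds Six6os1 of the wider list below. Six6os1 went the other way, called higher on the deposited scale (log2 fold change 0.33) and not with size factors (0.20). Among the members, Syce1, Syce2 and Syce3 fell, with log2 fold changes of -0.18, -0.42 and -0.25. The median of the 5 members was -0.21 on the deposited scale and -0.35 with size factors. In wild-type libraries Syce2 (ENSMUSG00000003824, chr8:85598740-85614853 in GRCm39, plus strand) was at 142.5, 139.2, 143.8 and 139.1 CPM, and in mutants at 108.8, 101.0 and 107.6 CPM. All 3 mutants lay well below the lowest wild type. The mutant mean was 74.9% of the wild-type mean (log2 fold change -0.42, SE 0.04, limma with Benjamini-Hochberg adjustment, FDR 3.2e-06). Syce2 shares 13.3% of its exon bases with Gcdh on the opposite strand, and Gcdh averaged 7.45 CPM in wild type and 13.8 CPM in mutants.

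Syce1 (ENSMUSG00000025480, chr7:140356873-140367820, minus strand) was at 311.7, 320.7, 323.0 and 303.0 CPM in wild-type libraries and at 279.0, 275.1 and 277.3 CPM in mutants. The groups did not overlap, but the gap was small, with a mutant mean of 88.1% of the wild type (SE 0.04, limma with Benjamini-Hochberg adjustment, FDR 0.001). Syce3 (ENSMUSG00000078938, chr15:89274366-89299966, minus strand) was at 51.2, 56.6, 47.6 and 51.3 CPM in wild type and at 45.0, 42.8 and 42.6 CPM in mutants. Its lowest wild-type library, wild type 3, lay just above the highest mutant. The call of Syce3 (limma with Benjamini-Hochberg adjustment, FDR 0.0035) was lost without wild type 2, mutant 2 or mutant 4, with FDRs of 0.011, 0.015 and 0.017.

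Sycp1 ranged from 159 to 206 CPM in wild type and from 144 to 164 CPM in mutants, so that mutant 2 lay above the lowest wild type. Its log2 fold change of -0.21 missed the threshold (limma with Benjamini-Hochberg adjustment, FDR 0.026), and it was called on the size-factor scale (-0.35). Tex12, which joins Syce2 in the fibres of the central element, had a log2 fold change of 0.06 with an SE of 0.11. It ran from 11.6 to 14.2 CPM in wild type and from 11.4 to 15.02 CPM in mutants.

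The promoter sequences of Syce1 and Syce2 are shown because both genes fell and because they differ in the motifs found. They come from RefSeq in build GRCm38.p6, a build other than that of the gene coordinates above, and each runs from 250 bases before a gene start to 50 bases after it, 5′ to 3′ on the coding strand. Capitals mark the motifs searched. For Syce1 (chr7:140787805-140788104, minus strand) they mark a Myb motif. For Syce2 (chr8:84872008-84872307, plus strand, 1 of its 2 windows) they mark a Myb motif, an E-box and an E2F motif, in this order.
Syce1: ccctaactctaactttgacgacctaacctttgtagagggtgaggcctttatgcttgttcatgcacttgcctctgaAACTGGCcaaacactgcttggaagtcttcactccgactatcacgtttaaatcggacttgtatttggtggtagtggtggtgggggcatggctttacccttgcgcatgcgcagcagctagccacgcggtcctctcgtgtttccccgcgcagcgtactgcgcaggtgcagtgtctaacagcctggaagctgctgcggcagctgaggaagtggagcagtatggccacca
Syce2: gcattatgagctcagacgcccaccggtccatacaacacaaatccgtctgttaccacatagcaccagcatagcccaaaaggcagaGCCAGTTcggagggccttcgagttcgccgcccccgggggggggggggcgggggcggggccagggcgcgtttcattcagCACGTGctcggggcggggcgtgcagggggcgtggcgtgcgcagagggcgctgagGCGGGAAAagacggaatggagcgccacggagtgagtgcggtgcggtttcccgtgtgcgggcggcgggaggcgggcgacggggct

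The motifs are those of factors that act on germ cell genes, and 34 of the 40 members had an entry, with 40 windows. On either strand, the E-box CACGTG was found in 9 of the 40 windows (22.5%) and in 7.15% of all 32851 windows of that length. The E2F motif GCGNGAAA was found in 6 windows (15%), and in 2.09% of all. The Myb motif AACTGNC was found in 6 windows (15%), and in 12.8% of all. The CRE motif TGACGTCA and the RFX motif GTTGCCATG were found in 0 of the 40 windows, and in 1.79% and 0.773% of all. Windows with the E-box belonged to Hormad1, Rec114, Rnf212, Stag3, Syce2, Sycp1, Sycp3 and Tex12. Only Syce2 of these was called on the deposited scale. Such a match is a description of letters and not of binding.

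Genes of the chromosome axis did not pass the test. Of the 5 genes of the axis and its HORMA proteins, 0 were called on either scale in limma, 2 were higher at an unadjusted p under 0.05 on the deposited scale, and 2 were lower with size factors. Sycp2 and Sycp3 form the axial elements to which the central region attaches. Sycp3 ran from 75.2 to 83.7 CPM in wild type and from 70.6 to 83.0 CPM in mutants, and 48.5% of its exon bases are shared with Chpt1 on the opposite strand. Sycp2 averaged 313 CPM in wild type and 306 CPM in mutants.

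Hormad1 and Hormad2 mark axes that have not yet synapsed, and the ATPase Trip13 removes them. Hormad1 had a log2 fold change of 0.05 (SE 0.07). Hormad2 ran from 16.2 to 18.1 CPM in wild type and from 18.4 to 21.5 CPM in mutants, and Trip13 from 11.4 to 13.6 CPM and from 13.8 to 14.99 CPM. Every mutant lay above every wild type in both genes, yet their log2 fold changes of 0.18 did not pass (limma with Benjamini-Hochberg adjustment, FDR 0.059 and 0.076). With size factors they were 0.04 and 0.05.

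The meiotic cohesin subunits were also close to wild type. Rec8 and Rad21l are the 2 kleisins that close the ring in meiosis, Smc1b is its meiotic SMC protein and Stag3 its meiotic STAG subunit. None of the 4 genes was called on the deposited scale in limma, and 1 was lower at an unadjusted p under 0.05. That gene, Stag3, was at 451, 442, 475 and 444 CPM in wild type and at 425, 418 and 429 CPM in mutants, below the wild-type range in all 3. Its log2 fold change was -0.10 (SE 0.04, limma with Benjamini-Hochberg adjustment, FDR 0.045), and with size factors it was called lower at -0.23.

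Rec8 had a log2 fold change of 0.04 (SE 0.07) and Smc1b of -0.04 (SE 0.05). Rad21l is a rare transcript, at 2.25 to 2.42 CPM in wild type and at 2.24, 3.21 and 2.40 CPM in mutants 1, 2 and 4. Mutant 2 alone lay outside the wild-type range on the high side. Without it the log2 fold change of Rad21l went from 0.14 to -0.01, and neither value passed.

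Both members called higher on the deposited scale were break formation genes. Spo11 (ENSMUSG00000005883, chr2:172819493-172835369 in GRCm39, plus strand) makes the cut, and Mei1, Rec114 and Iho1 are needed for it, while Prdm9 marks with histone methylation the sites where it falls. Spo11 and Mei1, 2 of 5 genes, were called higher, a share near the 36.3% of all genes. With size factors 0 were called in limma, with 1 higher at an unadjusted p under 0.05. The median log2 fold change of the 5 genes was 0.27 on the deposited scale and 0.14 with size factors. Mei1 (ENSMUSG00000068117, chr15:81954197-82011015, plus strand) was at 9.72, 9.44, 8.19 and 9.13 CPM in wild type and at 12.2, 12.9 and 11.6 CPM in mutants. All mutants lay above all wild types, also with size factors, where it was the only member for which this held. The log2 fold change was 0.42 (SE 0.09, limma with Benjamini-Hochberg adjustment, FDR 0.0011), and 0.29 with size factors (FDR 0.012, not called).

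Spo11 was at 62.5, 71.8, 68.0 and 60.6 CPM in wild type and at 74.2, 84.8 and 78.7 CPM in mutants. The lowest mutant stood a little above the highest wild type. The log2 fold change was 0.27 (SE 0.07, limma with Benjamini-Hochberg adjustment, FDR 0.0033), and 0.14 with size factors, where the FDR was 0.077. The call was lost without wild type 1, mutant 2 or mutant 4, with FDRs of 0.011, 0.021 and 0.011.

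Iho1, which binds unsynapsed axes and gathers the break machinery there, ran from 12.3 to 16.2 CPM in wild type and from 17.2 to 17.8 CPM in mutants. The groups did not overlap, and the log2 fold change of 0.28 missed the threshold (limma with Benjamini-Hochberg adjustment, FDR 0.024). Rec114, at 2.56 to 3.38 CPM in all libraries, had a log2 fold change of -0.09 (SE 0.14) and shares 26.9% of its exon bases with Nptn on the opposite strand. Prdm9 had a log2 fold change of 0.12 (SE 0.11), or -0.01 with size factors.

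The difference between break formation and the central region was also computed within libraries, where the scaling cancels. The median of the break formation genes minus that of the central region genes, each gene taken relative to its wild-type mean on the log2 scale, was -0.04, 0.08, -0.19 and 0.16 in wild types 1 to 4. It was 0.37, 0.49 and 0.47 in mutants 1, 2 and 4. Every mutant lay above every wild type. These 2 roles were set against each other after their values were known, as those with the highest and the lowest median. The contrast rests on the same values of the same genes, so it adds no separate evidence and no test is given. Only the listed members enter this difference. The further break formation genes given below had a median log2 fold change of 0.007, and the further central element gene Six6os1 had 0.33.

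**Figure D2:**
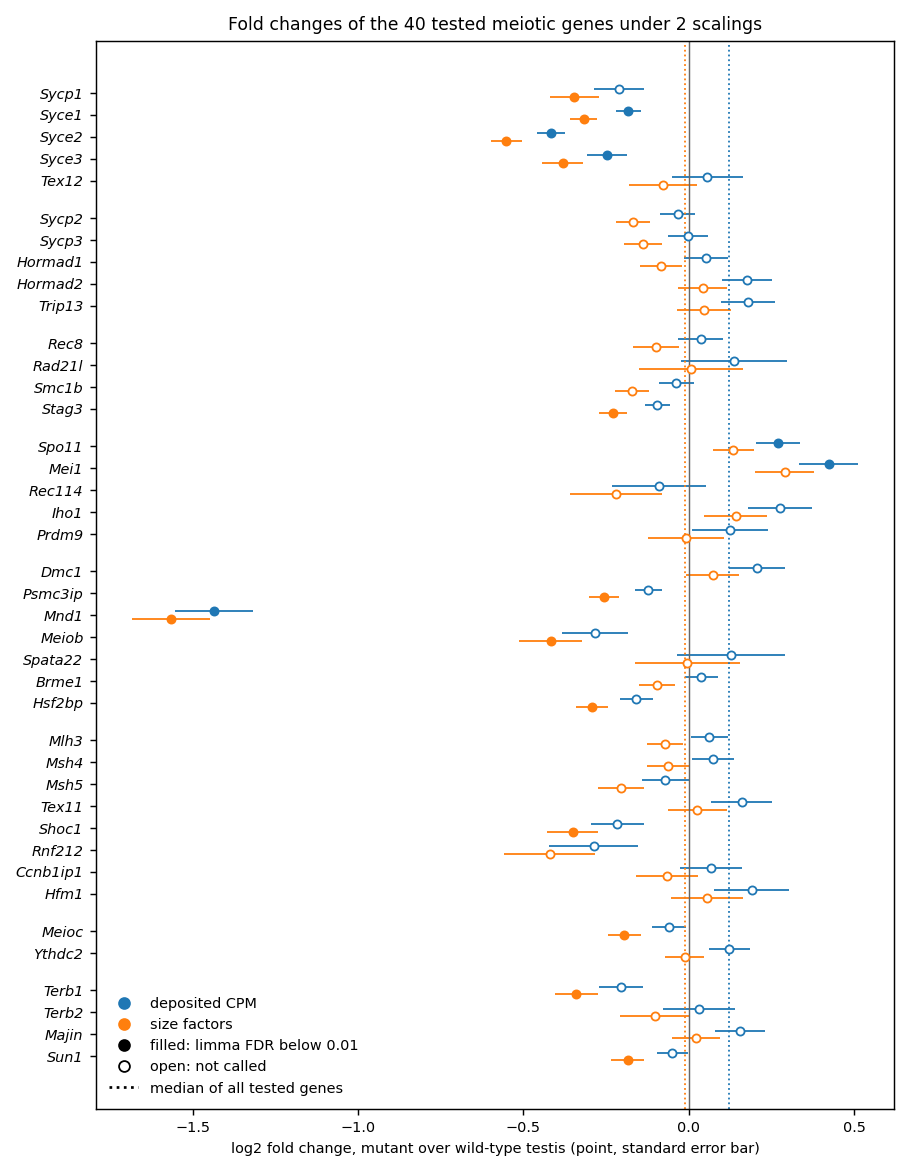
Log2 fold changes (points) with standard errors (bars) of the 40 tested members in order of role, on the deposited CPM (blue) and with size factors (orange), where filled points are called in limma and dotted lines give the median of all tested genes on each scale. Size factors move every member to the left by about the same amount, so that 13 rather than 4 are called lower and 0 rather than 2 higher.

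Among the strand exchange genes, Mnd1 fell further than any other member. Mnd1 (ENSMUSG00000033752, chr3:83994164-84063113 in GRCm39, minus strand) forms a pair with Psmc3ip, also known as Hop2, that helps Dmc1 to invade the homologous chromosome. It was at 5.71, 6.61, 6.15 and 6.84 CPM in wild type and at 2.24, 2.25 and 2.33 CPM in mutants. The 3 mutants were nearly equal and far below every wild type. Their mean was 35.9% of the wild type (log2 fold change -1.43, SE 0.12, limma with Benjamini-Hochberg adjustment, FDR 4.6e-07), or -1.57 with size factors. Leaving out any 1 library gave log2 fold changes from -1.48 to -1.40.

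Psmc3ip (ENSMUSG00000019303, chr11:100981704-100986276, minus strand) did not follow its partner. It was at 116.3, 111.9, 113.5 and 109.2 CPM in wild type and at 105.2, 101.4 and 104.1 CPM in mutants. The mutants lay below the wild types, by a small step (log2 fold change -0.12, SE 0.04, limma with Benjamini-Hochberg adjustment, FDR 0.022), and the gene was called lower only with size factors (-0.26). Of its exon bases, 38.1% are shared with Mlx on the opposite strand, which averaged 5.47 CPM in wild type and 10.3 CPM in mutants. Whether reads of Mlx were counted for Psmc3ip was not tested.

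The promoters of both partners, from RefSeq in GRCm38.p6, are shown because the 2 RNAs differed so in their response to the genotype. Neither window, that of Mnd1 at chr3:84155737-84156036 and that of Psmc3ip at chr11:101095386-101095685, both on the minus strand, held any of the 5 motifs, so they have no capitals.
Mnd1: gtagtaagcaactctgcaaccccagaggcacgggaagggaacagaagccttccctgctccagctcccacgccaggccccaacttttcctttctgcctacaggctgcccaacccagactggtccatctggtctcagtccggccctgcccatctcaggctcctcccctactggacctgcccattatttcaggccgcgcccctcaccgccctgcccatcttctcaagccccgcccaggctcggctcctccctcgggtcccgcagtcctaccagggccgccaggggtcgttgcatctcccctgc
Psmc3ip: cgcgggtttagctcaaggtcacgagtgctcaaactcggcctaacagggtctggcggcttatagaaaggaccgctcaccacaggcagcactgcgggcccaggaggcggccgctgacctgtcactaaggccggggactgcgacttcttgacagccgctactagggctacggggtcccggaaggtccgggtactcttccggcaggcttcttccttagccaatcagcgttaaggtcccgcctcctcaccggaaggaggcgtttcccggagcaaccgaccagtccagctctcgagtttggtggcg

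The surroundings of Mnd1 were examined after its value was seen. The nearest tested gene, Trim2, a ubiquitin ligase gene on the same strand, lies 3068 bp away at chr3:84066181-84214184 in GRCm39. Trim2 was at 1.29, 1.46, 1.61 and 1.76 CPM in wild type and at 5.77, 6.33 and 6.94 CPM in mutants. It moved opposite to Mnd1 (log2 fold change 1.99, SE 0.15, limma with Benjamini-Hochberg adjustment, FDR 2.3e-07). Within 1 Mb of Mnd1, 5 genes besides Mnd1 itself were tested, Trim2 included. Of these 5, 2 were called higher, Trim2 being 1 of them (36.3% of all genes), and 0 lower (14.2% of all genes). A long noncoding RNA gene of the opposite strand, Gm65758, shares 5.48% of the exon bases of Mnd1 and was not analysed here.

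None of the other strand exchange genes was called on the deposited scale. With size factors 4 of the 7 genes of this role, Mnd1 among them, were called lower, where 25.1% of all genes were. Dmc1, the meiotic recombinase, ran from 14.9 to 18.2 CPM in wild type and from 17.6 to 20.2 CPM in mutants, with a log2 fold change of 0.21 (limma with Benjamini-Hochberg adjustment, FDR 0.047) and of 0.07 with size factors. Meiob and Spata22 bind single-stranded DNA together. Meiob was at 22.6, 19.9, 22.7 and 18.4 CPM in wild type and at 14.8, 17.8 and 19.0 CPM in mutants, and Spata22 at 3.44, 3.84, 3.80 and 3.09 CPM and at 2.96, 4.15 and 4.70 CPM. The groups overlapped in both genes. Meiob was called lower only with size factors (-0.42). Spata22 shares 50.7% of its exon bases with a gene model of the same strand, Gm49340, so its level is uncertain.

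Hsf2bp and Brme1 form a complex that brings Brca2 to broken ends. Hsf2bp ran from 51.0 to 54.6 CPM in wild type and from 45.8 to 48.2 CPM in mutants, without overlap (log2 fold change -0.16, SE 0.05, limma with Benjamini-Hochberg adjustment, FDR 0.013, not called). With size factors it was called lower at -0.29. Brme1 ran from 67.7 to 73.3 CPM and from 69.4 to 76.5 CPM. Its groups overlapped and it was not called on either scale.

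The crossover genes did not pass the test on the deposited scale. Of 8 genes, 0 were called in limma, and 1, Shoc1, was lower at an unadjusted p under 0.05. The median log2 fold change was 0.06, and -0.07 with size factors. Shoc1, with which Spo16 forms a complex at crossover sites, was at 14.1, 15.3, 16.3 and 16.6 CPM in wild type and at 12.7, 14.0 and 13.4 CPM in mutants. The highest mutant, mutant 2, lay just under the lowest wild type. The log2 fold change was -0.22 (SE 0.08, limma with Benjamini-Hochberg adjustment, FDR 0.031), and with size factors it was called lower at -0.35.

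Msh4 and Msh5, which clamp onto joined DNA, had log2 fold changes of 0.07 and -0.07. Mlh3, part of a nuclease that resolves crossovers, had 0.06, and the X-linked Tex11 had 0.16. The ubiquitin ligase Ccnb1ip1, which limits the number of crossover sites, had 0.07. None of these 5 was called on either scale. Their SEs lay between 0.06 and 0.09.

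Mutant 2 stood apart from the other mutants in 2 crossover genes on chromosome 5. The helicase gene Hfm1 was at 64.2 CPM in mutant 2 and at 41.9 and 44.0 CPM in mutants 1 and 4, with 41.4 to 44.2 CPM in wild type. Rnf212, a SUMO ligase gene, was at 4.71 CPM in mutant 2, at 6.90 and 6.73 CPM in mutants 1 and 4, and from 6.73 to 8.20 CPM in wild type. Mutant 2 was therefore the highest of all 7 libraries in Hfm1 and the lowest in Rnf212. Without it the log2 fold change went from 0.19 to -0.003 for Hfm1 and from -0.29 to -0.11 for Rnf212. Neither gene was called with or without it.

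Both genes of meiotic entry were near wild type. Meioc and the RNA helicase Ythdc2 act together to let germ cells leave the mitotic program and go through prophase. Meioc averaged 143 CPM in wild type (SD 7.1) and 138 CPM in mutants (SD 7.6), and Ythdc2 averaged 31.0 CPM (SD 1.2) and 33.8 CPM (SD 2.3). Neither was called on the deposited scale in limma, and 0 of the 2 had an unadjusted p under 0.05. With size factors Meioc was called lower, at -0.20.

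In the telomere attachment group the 4 genes also missed the threshold. Terb1, Terb2 and Majin link telomeres to the inner nuclear membrane, and Sun1 spans that membrane and reaches the cytoskeleton through Kash5. Terb1 was at 32.2, 33.8, 37.7 and 37.5 CPM in wild type and at 30.3, 30.8 and 30.5 CPM in mutants. The mutants lay close together below the wild types (log2 fold change -0.21, SE 0.07, limma with Benjamini-Hochberg adjustment, FDR 0.016). With size factors Terb1 and Sun1 were called lower, at -0.34 and -0.18. Terb2 and Majin had log2 fold changes of 0.03 (SE 0.11) and 0.16 (SE 0.08), and Sun1 of -0.05 (SE 0.05) on the deposited scale. Of the 4 genes, 1 had an unadjusted p under 0.05 on that scale.

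Many of these proteins work together as a complex or act on the same step, and both kinds are called partners here. The ratio of partners was compared within each library, where the scaling of the library cancels. For 16 pairs, the difference of the mean log2 ratio between genotypes was tested with a two-sided exact permutation test, which takes all 35 ways to divide 7 libraries into 4 and 3. The smallest p this design allows is 0.029, or 0.057 if the smaller tail is doubled. Mutants and wild types did not overlap in 8 of the 16 pairs, and 7 reached an exact permutation p of 0.029. After Benjamini-Hochberg adjustment over the pairs their p was 0.065 in the exact permutation test, so 0 passed 0.05. A pair that alone reached the smallest p could not have passed after adjustment over 16 pairs. With the doubled tail no pair could be under 0.05, even before adjustment. That 0 passed therefore says nothing about any single pair. How often ratios of other gene pairs do not overlap is not given here. Of single genes on the deposited scale, 19.5% had every mutant below every wild type and 42.8% every mutant above. The 8 pairs without overlap are therefore not shown to be a trait of partners.

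The ratio of Mnd1 to Psmc3ip showed the largest difference. It was 0.04996, 0.05994, 0.05500 and 0.06351 in wild type and 0.02223, 0.02310 and 0.02337 in mutants, a log2 difference of -1.31. The ratio of Syce2 to Tex12 lay between 9.71 and 11.9 in wild type and was 9.49, 6.91 and 7.12 in mutants 1, 2 and 4, a log2 difference of -0.47. In the latter pair mutant 1 lay close to the wild types.

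The other ratios without overlap were smaller and lay below wild type in the mutants. Shoc1 over Tex11 differed by -0.38 on the log2 scale, Terb1 over Majin by -0.36, Hsf2bp over Brme1 by -0.20 and Meioc over Ythdc2 by -0.18. Meiob over Spata22 differed by -0.41, with an exact permutation p of 0.057. Rnf212 over Ccnb1ip1 differed by -0.36, and here mutant 2 decided the size, with a ratio of 0.611 against 0.887 and 0.878 in mutants 1 and 4. Without mutant 2 this difference was -0.18.

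The groups overlapped in the other 8 pairs. Iho1 over Rec114 differed by 0.37 on the log2 scale and Terb1 over Terb2 by -0.24, as much as some of the pairs above, with an exact permutation p of 0.086 for each. Msh4 over Msh5, Hormad1 over Hormad2 and Rad21l over Rec8 differed by 0.14, -0.12 and 0.10. The ratio of Sycp2 to Sycp3 ran from 3.83 to 4.09 in wild type and from 3.84 to 4.01 in mutants, a log2 difference of -0.03 (exact permutation p = 0.34). Smc1b over Stag3 differed by 0.06 and Syce1 over Syce3 by 0.06, with exact permutation p of 0.29 and 0.37. In these last 3 pairs the genotypes differed by less than the SD among wild-type libraries.

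**Figure D3:**
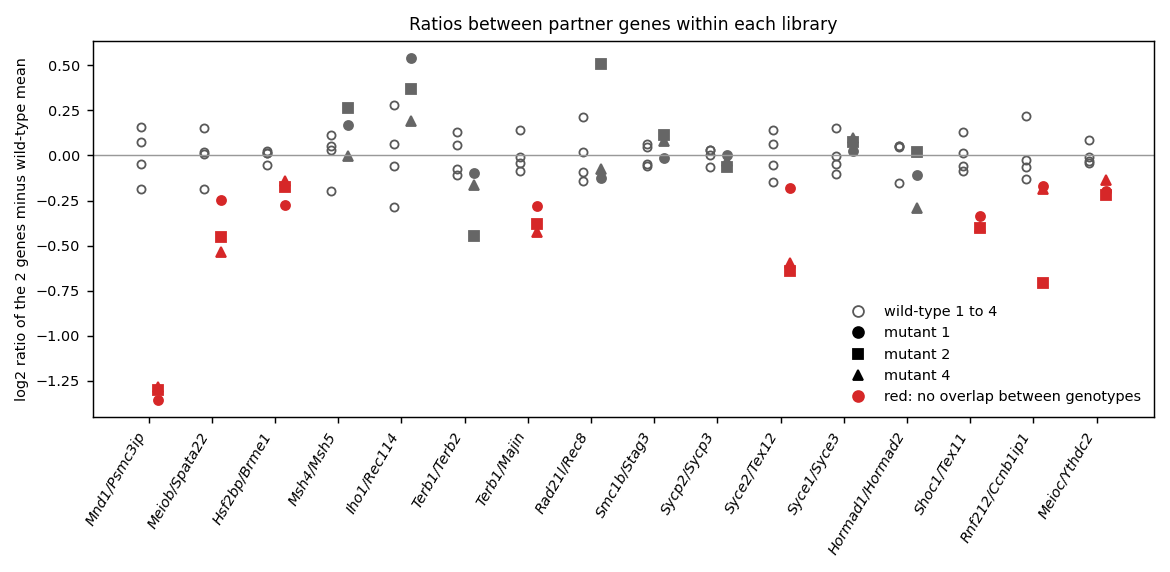
Each point is 1 library's log2 ratio of the CPM of 2 partner genes minus the wild-type mean of that ratio, with wild types as open circles, mutants as filled symbols, and mutants in red where they do not overlap with wild type. The 8 red pairs all lie below 0, and Mnd1/Psmc3ip reaches -1.31 on average.

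A further 76 genes known to act in the same steps were listed, of which 74 were tested, and Hus1b and Speedya were not analysed here. On the deposited scale 19 of the 74 were called higher, where 36.3% of all genes were, and 5 lower, where 14.2% were. With size factors 7 were higher, where 27.0% of all genes were, and 13 lower, where 25.1% were. Their median log2 fold change of 0.13 was close to the 0.12 of all genes.

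Among the strand exchange genes of this wider list, 5 of 24 were higher and 2 lower on the deposited scale. With size factors 2 were higher and 2 lower. The shares over all genes were 36.3% higher and 14.2% lower, and 27.0% and 25.1% with size factors. Hrob, which loads the Mcm8 and Mcm9 helicase, averaged 32.5 CPM in wild type and 21.5 CPM in mutants (log2 fold change -0.59, SE 0.07, limma with Benjamini-Hochberg adjustment, FDR 7.6e-06). Rpa1, the large subunit of the protein that coats single-stranded DNA, fell by 0.20 on the log2 scale. Xrcc3, which acts in homologous recombination, and the helicase-like Mcmdc2 rose on the deposited scale, with log2 fold changes of 0.44 and 0.42. With size factors Mcmdc2 was called at 0.29 and Xrcc3, at 0.31, was not (limma with Benjamini-Hochberg adjustment, FDR 0.015). Hrob had the largest decrease of the 74 genes.

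In the wider cohesin list, 7 of 15 genes were higher and 2 lower on the deposited scale, and 3 were higher and 2 lower with size factors. Over all genes 36.3% were higher and 14.2% lower, and 27.0% and 25.1% with size factors. Smc1a, the counterpart of Smc1b in mitotic cells, averaged 10.6 CPM in wild type (SD 0.59) and 18.3 CPM in mutants (SD 1.6). It rose by a log2 fold change of 0.79 (SE 0.08, limma with Benjamini-Hochberg adjustment, FDR 5e-06), whereas Smc1b had -0.04. Sgo1, a protector of centromeric cohesin, rose from 2.19 to 3.68 CPM. Of its wild types only wild type 3 reached the 2.2 CPM minimum, so Sgo1 was tested only through the mutants. The cohesin protease Espl1 and the loader Nipbl fell by 0.21 and 0.18 on the log2 scale. Smc1a, Sgo1, Espl1 and Nipbl were called on both scales.

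In the remaining roles, several calls of the deposited scale were lost with size factors. The shares over all genes were 36.3% higher and 14.2% lower, and 27.0% and 25.1% with size factors. Of 11 further crossover genes, Spo16 fell by 0.21 on the log2 scale and Top3a rose with a log2 fold change of 0.24. With size factors 6 of the 11 were lower in limma, where 25.1% of all genes were. On that scale 0 were higher, where 27.0% of all genes were, with 0 higher at an unadjusted p under 0.05. Top3a was not called with size factors (0.11). Of 12 checkpoint genes, Chek2 and Rad1 rose, with log2 fold changes of 0.72 and 0.44, and with size factors Rad1 was called at 0.31 while Chek2, at 0.59, was not. Of 3 telomere attachment genes, Sun2, a widely expressed relative of Sun1, rose by 0.88 and Terf1 by 0.27, and with size factors Sun2 was called at 0.75 while Terf1, at 0.14, was not. The histone reader Zcwpw1, which binds sites marked by Prdm9, was the 1 of 4 break formation genes called on the deposited scale, at 0.34. Zcwpw1 was not called with size factors (0.20), where Ankrd31 was called lower at -0.29. On the deposited scale Ankrd31 had -0.16, with every mutant below every wild type. The median log2 fold change of these 4 genes was 0.007, and -0.13 with size factors, unlike that of the break formation members. Six6os1, a partner of Syce1 in the central element, had a log2 fold change of 0.33 and was called higher on the deposited scale, but not with size factors (0.20). The meiotic entry genes Stra8, Meiosin and Rbm46 were not called on the deposited scale in limma, and 1 of the 3 was higher at an unadjusted p under 0.05.

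Markers of the cell types in a testis moved with the genotype, and their part in the results above was not tested. Of 6 spermatocyte markers, 2 were called lower and 0 higher (5 and 0 with size factors), with a median log2 fold change of -0.12 and a summed level of 5249.9 to 5437.2 CPM in wild type and 4591.9 to 4662.5 CPM in mutants. Of 7 spermatogonial markers, 4 were higher on the deposited scale and 1, Kit, with size factors, with summed levels of 109 to 121 and 159 to 187 CPM, and Kit rose from 21.7 to 62.2 CPM. Spermatogonia are not the only testis cells that express Kit, since Leydig cells do so too. Round spermatid markers were lower for 4 of 6, or 6 of 6 with size factors (summed level 1097.4 to 1201.9 against 925 to 1021.4 CPM) and elongating spermatid markers for 7 of 7 (22907 to 24261 against 14722 to 16883 CPM).

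Most somatic markers went the other way. All 6 Sertoli cell markers tested were higher, or 5 of 6 with size factors (summed level 349 to 375 against 626 to 658 CPM), as were 6 of 7 Leydig cell markers (1020.7 to 1224.3 against 4296 to 4471.7 CPM) and 7 of 7 macrophage markers (68.3 to 74.2 against 170 to 197 CPM). Insl3 made up most of the rise in the Leydig sum, from a mean of 438 to 2941 CPM. The macrophage marker Cd163 was tested only through the mutants, since of its wild types only wild type 3 reached 2.2 CPM. The Leydig marker not called was Star (log2 fold change 0.24). Of the endothelial markers 2 of 5 were higher (30.6 to 34.5 against 44.0 to 46.4 CPM), and of the peritubular myoid markers 1 of 4 (66.2 to 90.1 against 76.5 to 102 CPM). The endothelial Vwf fell from 18.1 to 19.0 CPM in wild type to 15.2 to 16.7 CPM in mutants. It was called lower with size factors (-0.35). The endothelial Tek and the myoid Myh11 and Cnn1 also had negative log2 fold changes, and were not called on either scale. Of 4 red blood cell markers 0 were called in limma, with 2 higher and 1 lower at an unadjusted p under 0.05. No marker of any list was at 0 in a library. The meiotic members lay, by their median of 0.03, between the spermatid markers and the spermatogonial and somatic ones, and the spermatocyte median of -0.12 lay between them too.

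**Figure D4:**
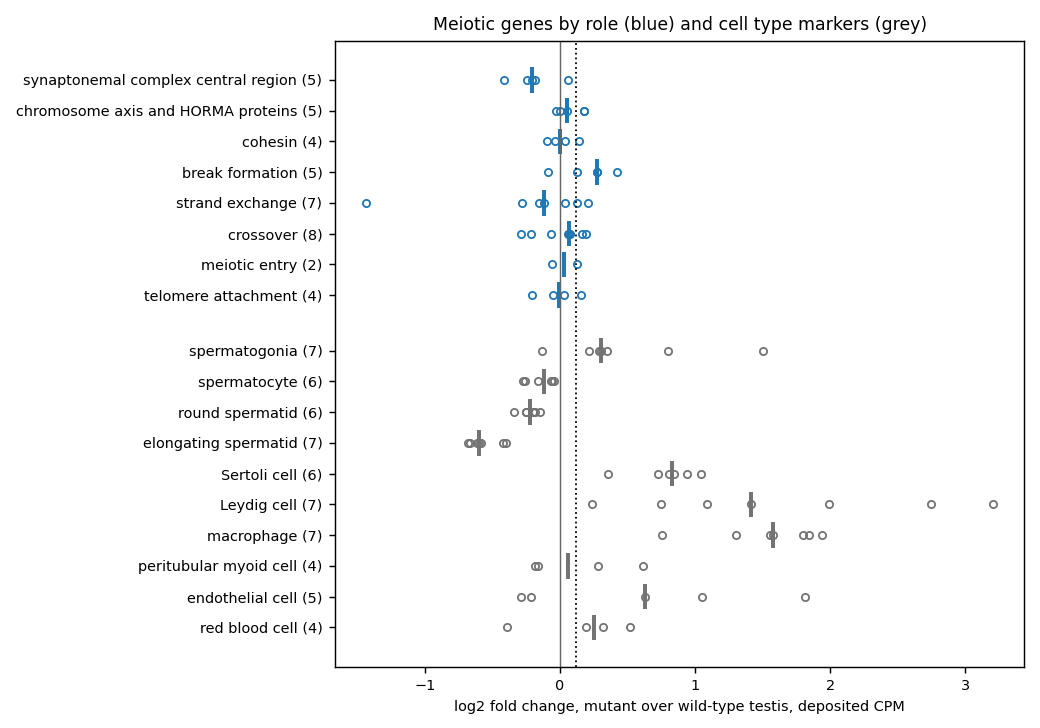
Each circle is the log2 fold change (mutant over wild type, deposited CPM) of 1 gene, in rows for the 8 roles of the meiotic members (blue) and for 10 marker lists (grey), with the number of genes in brackets, a bar at the median of each row and a dotted line at the median of all tested genes. The meiotic rows lie between -0.21 and 0.27 by their medians, while elongating spermatid markers lie at -0.60 and macrophage markers at 1.57.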

How the data were processed

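Testis RNA of 7 mice was analysed (4 wild-type, 3 mutant; mutant 3 is not analysed here, and the study left out 1 mutant as an outlier). The libraries were made with a TruSeq kit and sequenced in pairs. Per the labels and the study's methods, the authors used Trimmomatic for trimming, Subread for mapping to GRCm39 and featureCounts for counting, left out genes with few reads and used edgeR and DESeq2 for their own calls. The deposited values are CPM. They carry no between-sample factor, and the strand setting of the counting is not given in the sources used here, so members that share exon bases with another gene are uncertain. The depth given above rests on 1 step of the table being 1 read.

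CPM are not counts, so a model with trended variance was fitted in limma 3.58.1 (R 4.3.3) to log2(CPM + 0.1) of genes with at least 2.2 CPM in 2 samples of a group, with Benjamini-Hochberg adjustment over all 17126 tested genes. Mice are separate animals, and p-values measure the spread between them. Partner ratios used an exact permutation test in Python 3.11.15 (NumPy 2.4.6, pandas 2.3.3), and plots were drawn with matplotlib 3.10.9. Gene coordinates and exons came from GENCODE M39 on GRCm39, and promoters from RefSeq on GRCm38.p6, with no conversion between builds.

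All members and Iqch were named, as were, for each role of the wider list, up to 2 called genes per direction with the largest change, and genes overlapping a member. Trim2, Kit, the chromosome shared by Hfm1 and Rnf212 and the contrast of break formation with the central region were chosen after values were seen. The members, lists, pairs and motifs were chosen with earlier results of these data known. Results were recomputed with median-of-ratios size factors, with sample weights, with the replicate number as a block, without each library in turn, with pseudocounts of 0.01 and 1, and with the minimum raised to 5 CPM or dropped.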

Additional observations from a re-analysis of the deposited data

How the results depend on the processing

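Size factors changed the calls most, with 13 members lower and 0 higher in place of 4 and 2. Of the 15 members called on either scale, 4 were called on both (Mnd1, Syce1, Syce2 and Syce3). Leaving out 1 library at a time gave 3 to 6 members called lower and 1 or 2 called higher (1 without wild type 1, mutant 2 or mutant 4), and 14 to 23 of the wider list, where 24 were called with all libraries (15 without mutant 2 and 14 without mutant 4). Mnd1, Syce1, Syce2 and Mei1 were called without any 1 library. Terb1 was called lower without wild type 1, and Sycp1 and Meiob without wild type 4. Among the 21 members that share no exon base with a gene of the opposite strand, an alternative added after the data were seen, 2 were called lower (Syce1 and Syce3) and 2 higher. Replicate numbers did not pair the samples, since the deviations of mice with the same number correlated at 0.026, 0.009 and -0.098. The replicate block called 4 members lower and 2 higher, the same genes as without it. Size factors with the replicate block, also added after the data were seen, gave 11 lower, 0 higher and 15 genes of the wider list. The pseudocounts, minimums and sample weights kept the count of members called within 1.5 times, and no direction of a called member was reversed. With 3 mutants, changes near the median standard error of the members, 0.073 on the log2 scale, could not be told from 0. Larger changes were also left uncalled on the deposited scale, such as Meiob at -0.28, Iho1 at 0.28 and Rnf212 at -0.29. A member that was not called may therefore have changed by more than 0.073.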
